A study of Mus musculus with 20 samples.

Results

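The comparison described here set tumors given a control antibody plus GSK343, an inhibitor of the histone methyltransferase EZH2 (5 libraries), against tumors given the control antibody alone (4 libraries). These 9 libraries were taken by their labels from the 19 with a column in the deposited table, and the other 10 received an antibody against the chemokine CXCL10. HEPA1-6 cells, a mouse hepatoma line, were injected under the skin of C57/BL6 mice, and the tumors grew for 4 weeks before poly-A RNA was sequenced. The control group holds replicates 1, 2, 3 and 5, and replicate 4 was not analysed here. The treated group holds replicates 1 to 5. Both groups received the same kind of control antibody and carry no engineered allele named in the labels, which give neither the dose of GSK343 nor the sex or age of the mice. Whether each tumor was from its own mouse is not stated in the labels, and the p-values therefore reflect only the variation among these samples, which may be technical in part.

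EZH2 is the catalytic subunit of Polycomb repressive complex 2 (PRC2), which methylates lysine 27 of histone H3 and keeps developmental and lineage genes silent. A second complex, PRC1, is recruited to this mark and compacts the marked chromatin. GSK343 competes with the methyl donor in the catalytic site, so it blocks the enzyme without removing the protein or its mRNA. In tumors, EZH2 is known for silencing antigen presentation genes and chemokines that draw T cells, such as Cxcl9 and Cxcl10, which interferon-gamma induces.

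Values are FPKM, fragments per kilobase of transcript scaled to the library's mapped fragments, and changes are differences of the group means of log2(FPKM + 1), treated minus control, with their standard error. A gene was called higher or lower at a Benjamini-Hochberg adjusted p under 0.05 from limma, fitted on all 19 libraries. Correlations between replicates ran from 0.965 to 0.973 in the control group and from 0.941 to 0.972 in the treated group, and no columns were identical. The hepatoma markers Alb and Afp stood at 1819 to 3243 and 1427 to 2643 FPKM across the 9 libraries. Skeletal muscle markers were uneven: their summed level was 115 to 227.8 FPKM in the controls and 156.6, 196.7, 782.1, 3101 and 751.4 FPKM in treated replicates 1 to 5. Of 25 tested muscle markers, 21 were higher in treated replicates 3, 4 and 5 than in the other 6 libraries, and 1 was called. Keratinocyte markers summed to 849.2 FPKM in control replicate 2 and 596.4 in treated replicate 2, against 52.4 to 261.7 in the other libraries. In bulk tumors, more cells of a type and more RNA per cell cannot be told apart.

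With GSK343, 627 genes were higher and 160 lower among 14385 tested, 4.36% and 1.11%. The rises were larger than the falls, with a median of 0.85 against -0.53, and they came from less abundant genes, with a median control level of 5.16 FPKM for the higher genes and 22.8 FPKM for the lower ones. At least 2-fold differences on this scale were reached by 212 of the higher and 17 of the lower genes. In 403 of the 627 higher genes all 5 treated libraries lay above all 4 controls, and in 122 of the 160 lower genes all lay below; over all tested genes these patterns were seen in 4.05% and 3.54%. The 2 groups together cannot reach an exact permutation p below 0.0159 for a single gene.

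**Figure D1:**
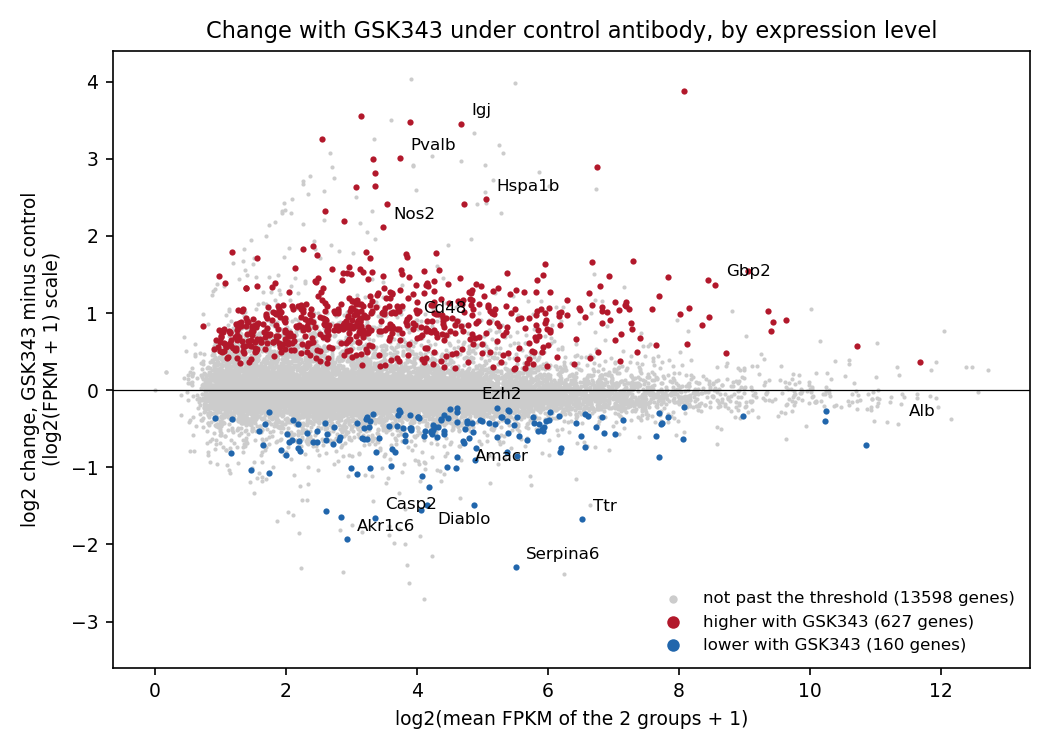
Difference between treated and control group means for each of 14385 tested genes (vertical axis, log2(FPKM + 1) scale) against the mean level of both groups (horizontal axis, log2 scale). Red points are the 627 genes called higher and blue points the 160 called lower; grey points with equally large differences were too variable between libraries to pass.

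The calls depended on single libraries. Without control replicate 1, 259 genes were higher and 40 lower, and without control replicate 5, 256 and 63. Leaving out treated replicates 2 or 3 gave 384 and 69, or 313 and 62, and leaving out control replicate 2 or treated replicate 4 left the higher count within 1.5 times but the lower count at 94 or 88. Leaving out treated replicate 1 raised the counts to 1025 and 364. Across all 9 such fits, 211 higher and 28 lower genes were called every time, and below a gene is said to have held in all 9 fits only where that was so. Fitting the 9 libraries without the anti-CXCL10 groups called 180 and 53. Without treated replicates 3, 4 and 5, the ones high in muscle markers, 12 and 3 genes were called with 2 treated libraries remaining. The plot of calls by setting shows these counts together.

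**Figure D2:**
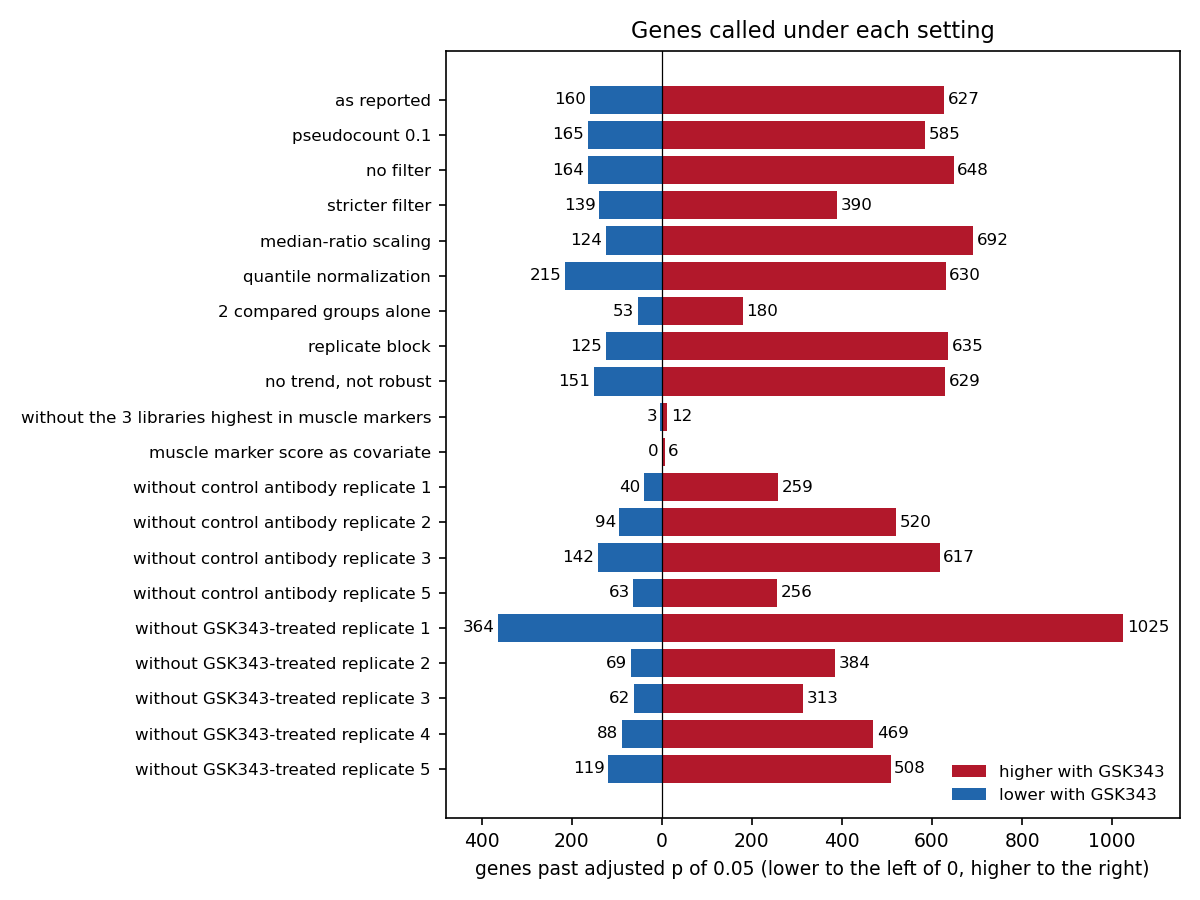
Number of genes called higher (red, right) and lower (blue, left) at an adjusted p under 0.05 under each setting. The main fit gives 627 and 160, the fits that leave out 1 library run from 256 to 1025 higher genes, and the fits that remove or model the muscle signal give 12 or 6.

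Treated replicate 1 lay nearest to the controls. It was the lowest treated library for 479 of the 627 higher genes (76.4%) and the highest treated library for 82 of the 160 lower genes (51.2%). Measured against the control mean, the median over the higher genes was 0.40 in treated replicate 1, 0.99 in replicate 2, 1.19 in replicate 3, 0.82 in replicate 4 and 0.84 in replicate 5. Among the controls, replicate 3 was the highest control for 341 of the higher genes (54.4%) and replicate 2 for 220 (35.1%). The treated libraries with the highest medians, replicates 2 and 3, had muscle marker sums of 196.7 and 782.1 FPKM.

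Transcripts of the drug's target complex were not called. Ezh2 had 31.8, 31.9, 25.0 and 29.9 FPKM in control replicates 1, 2, 3 and 5 and 28.8, 26.7, 21.7, 27.1 and 22.2 FPKM in treated replicates 1 to 5. The groups overlapped, and the difference of -0.22 ± 0.10 did not pass (limma adjusted p = 0.244). Of 10 tested PRC2 genes 0 were called, with changes between -0.22 and 0.17, beside 4.36% higher and 1.11% lower of all tested genes. With shares this low, 0 calls in a list of 10 or 8 genes say little. The core partners Eed and Suz12 differed by 0.06 and -0.16. Of 8 genes for H3K27 demethylases and PRC2 antagonists 0 were called, although the H3K4 methyltransferase gene Kmt2d stood at 8.09, 8.74, 8.80 and 7.43 FPKM in the controls and at 3.69, 3.24, 4.98, 7.35 and 2.59 FPKM in the treated libraries. All 5 treated Kmt2d values were below the lowest control, but their spread was wide and the difference of -0.85 ± 0.37 did not pass (adjusted p = 0.213).

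PRC1 subunits and classical targets of Polycomb repression were also followed. Of 16 tested PRC1 genes 0 were called, while 14 had negative differences and the list's median was -0.18, beside -0.03 for all tested genes. Bmi1, a subunit that stimulates histone H2A ubiquitination, had 13.2 to 15.5 FPKM in the controls and 7.98, 5.78, 13.9, 12.5 and 11.1 FPKM in the treated libraries (-0.53 ± 0.20, adjusted p = 0.136). Of 46 listed developmental targets 18 were tested, and the other 28 were either not in the table or under the filter. Among the 18, Hoxc6 rose (5.56%, beside 4.36% of all tested genes), Tbx3 and Sox9 fell (11.1%, beside 1.11%), and 8 of the 18 differences were positive. Tbx3, a T-box repressor active in liver progenitors, had 20.2, 22.3, 18.0 and 24.3 FPKM in the controls and 16.7, 13.9, 14.4, 12.7 and 13.2 FPKM with GSK343. Its groups did not overlap (-0.55 ± 0.12, adjusted p = 0.0144), and the call was lost without control replicate 5 (adjusted p = 0.062). The Hoxc6 call held in 3 of 9 such fits, that of Sox9 in 1. The cell cycle inhibitor genes, among them the known EZH2 target Cdkn2a (0.13 ± 0.15) and Cdkn1a (-0.13 ± 0.10), had 0 of 6 called. With 4.36% higher and 1.11% lower over all tested genes, 0 calls in lists of 6 or 16 genes say little.

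Ifng, which encodes interferon-gamma, was among the rises. It stood at 2.25, 2.23, 3.62 and 2.34 FPKM in the controls and at 5.36, 11.5, 22.7, 5.70 and 8.01 FPKM with GSK343. Every treated library exceeded every control, and treated replicate 3 was the highest (1.52 ± 0.30, limma adjusted p = 0.00756; called in all 9 fits that left out 1 library). Of 17 tested genes of the interferon-gamma signal chain, 8 rose and 0 fell, with a median of 0.55. Socs1, a feedback inhibitor of JAK kinases, rose from 12.2, 16.1, 20.5 and 12.9 FPKM to 25.5, 47.4, 49.4, 30.01 and 48.4 FPKM (1.299 ± 0.26). The receptor genes Ifngr1 (-0.07) and Ifngr2 (0.20) and the early target Irf1 (0.01 ± 0.42) were not called. Irf1 varied widely among treated replicates 1 to 5, at 175.7, 294.3, 118.6, 78.98 and 87.1 FPKM. Its controls had 117.9 to 152.2 FPKM. The chain had 3 genes called without control replicate 1 and 4 without control replicate 5, treated replicate 2 or treated replicate 3.

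The GTPases that interferon-gamma induces against intracellular pathogens were the list with the largest called share. Of 18 tested GBP and IRG genes (guanylate-binding proteins and immunity-related GTPases), 16 rose and 0 fell, against 4.36% of all genes, and the median was 0.95. Gbp2 had 159.1, 238.6, 284.9 and 141.2 FPKM in the controls and 286.4, 722, 756.8, 394.4 and 571.9 FPKM with GSK343. The lowest treated value was just above the highest control (1.37 ± 0.33, adjusted p = 0.0204), and the call was lost without control replicates 1 or 5 or treated replicates 2 or 3. Gbp7, from the same cluster, rose from 26.7, 32.4, 37.0 and 27.7 FPKM to 44.8, 78.9, 73.1, 49.6 and 54.8 FPKM and was called in all 9 fits. The count of 16 fell to 4 without control replicate 1, 4 without control replicate 5, 8 without treated replicate 2 and 7 without treated replicate 3. The median without treated replicates 3, 4 and 5 was 0.91, but 0 of the 18 genes were called in that fit. With a muscle marker score as covariate 0 were called, and with the compared groups alone 3.

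Antiviral genes respond to type I interferon as well as to interferon-gamma. Of 34 tested, 12 rose and 0 fell, the median was 0.69, and 33 had positive differences. Ifit1, which binds viral RNA caps, rose from 2.78, 3.49, 4.56 and 3.13 FPKM to 7.86, 10.2, 9.21, 6.44 and 6.49 FPKM (1.01 ± 0.18, adjusted p = 0.00473). All treated values lay clear of the controls. Zbp1, a sensor of Z-form nucleic acids, and Parp14 were also called in all 9 fits, at 1.06 and 0.88. The count was 3 without control replicate 1, 5 without control replicate 5, 6 without treated replicate 2 and 5 without treated replicate 3. In the Schlafen family, 4 of 8 rose; Slfn1, Slfn2 and Slfn4 (0.67, 1.05 and 1.46) lie side by side on chromosome 11 and were called in all 9 fits, and Slfn3, Slfn9 and Slfn10-ps differed by 0.07, 0.10 and 0.12.

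The longest run of neighbouring genes called in 1 direction was a cluster of interferon-inducible PYHIN genes, whose products bind DNA in the cytosol and nucleus. All 11 tested neighbours between 173468509 and 174031810 on chromosome 1 (GRCm38) rose, by 0.56 to 2.32. Ifi205 had 16.2, 21.3, 28.9 and 17.6 FPKM in the controls and 33.1, 54.5, 54.3, 47.2 and 36.5 FPKM with GSK343 (1.07 ± 0.21, adjusted p = 0.00747). Ifi204 rose from 19.98, 22.8, 28.6 and 19.98 FPKM to 31.5, 58.3, 57.0, 38.4 and 34.7 FPKM. Pyhin1, the member best known from lymphocytes, rose from 2.26, 2.80, 3.38 and 3.45 FPKM to 5.36, 8.95, 9.04, 6.91 and 5.79 FPKM. In these genes treated replicates 2 and 3 were the highest, and no treated library reached down to the controls. Aim2, the inflammasome sensor of the same family, had 33.4 to 53.4 FPKM in the controls and 32.4 to 51.1 FPKM in the treated libraries (0.03 ± 0.17). Mndal overlaps Ifi203 and Mnda in the annotation, and these genes are similar in sequence, so fragments may have been split between them.

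Antigen presentation rose on both arms. For class I, which displays cytosolic peptides to CD8 T cells, 9 of 24 tested genes rose and 0 fell (median 0.53), including the peptide transporter subunits Tap1 (0.85) and Tap2 (0.71), the loading factor Tapbp (0.64) and the light chain B2m (0.37). None of these 9 was called in all 9 fits. The class I count was 1 without control replicate 1, 0 without control replicate 5, 2 without treated replicate 2 or 3, 4 without treated replicate 5 and 14 without treated replicate 1. For class II, which displays endocytosed peptides to CD4 T cells, 9 of 12 rose (median 0.86). Ctss, the protease that trims the class II invariant chain, stood at 263.3, 273.6, 376.9 and 168.4 FPKM and rose to 461.8, 1004, 1059, 736.2 and 690.5 FPKM (1.54 ± 0.25, adjusted p = 0.00282). H2-Aa, an alpha chain, rose from 547.2, 617.2, 676.3 and 370.5 FPKM to 714.5, 1171, 1115, 1043 and 1123 FPKM (0.91 ± 0.20), a call lost without control replicate 5. The regulator gene Ciita (0.65) and the invariant chain gene Cd74 (0.63) were not called. The class II count was 4 without control replicate 1, 3 without control replicate 5, 5 without treated replicate 2 and 4 without treated replicate 3.

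Promoters of these interferon targets are shown because many of them hold the core of the interferon-stimulated response element, a site bound by IRF transcription factors. Windows from RefSeq (build GRCm38.p6) covered 250 bases before to 50 after a gene's start and were searched on both strands for the response element core (GAAA, any 2 bases, GAAA) and for a STAT site (TTC, any 3 bases, GAA); the motifs can overlap each other. In the stretches, written 5′ to 3′ along the gene's strand, capitals mark matches to the response element core or its reverse complement.
Gbp2, chr3:142620584-142620633, plus strand: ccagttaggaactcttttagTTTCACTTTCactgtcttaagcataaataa
Gbp3, chr3:142559979-142560034, plus strand: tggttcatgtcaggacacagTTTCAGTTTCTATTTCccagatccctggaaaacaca
Igtp, chr11:58199502-58199551, plus strand: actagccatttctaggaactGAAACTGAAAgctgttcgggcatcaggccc
Irgm2, chr11:58214893-58214942, plus strand: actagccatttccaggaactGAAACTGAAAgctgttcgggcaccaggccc
Tgtp1, chr11:48992294-48992343, minus strand: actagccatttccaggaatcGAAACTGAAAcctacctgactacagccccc
Tgtp2, chr11:49064253-49064302, minus strand: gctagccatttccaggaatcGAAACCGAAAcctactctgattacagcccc
Ifit1, chr19:34640765-34640833, plus strand: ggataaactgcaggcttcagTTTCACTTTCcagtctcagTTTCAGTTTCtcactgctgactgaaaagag
Isg15, chr4:156200855-156200916, minus strand: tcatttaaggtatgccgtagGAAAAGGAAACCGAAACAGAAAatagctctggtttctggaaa
Ifi203, chr1:173942498-173942547, minus strand: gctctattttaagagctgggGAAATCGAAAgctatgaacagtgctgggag
Ifi205, chr1:174031860-174031909, minus strand: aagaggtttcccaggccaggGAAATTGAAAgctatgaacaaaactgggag
Cxcl10, chr5:92349073-92349122, minus strand: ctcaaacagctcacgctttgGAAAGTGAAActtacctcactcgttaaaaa
The Igtp and Irgm2 stretches share 48 of 50 bases, and Mndal has a window whose stretch is identical to that of Ifi203 over all 50. In Ifit1, 2 matches begin 104 and 85 bases before the start site (positions -104 and -85), and in Isg15, 3 overlapping matches begin at -78, -72 and -66.

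A window was found for 65.1% of tested genes, 70.3% of the higher and 61.3% of the lower ones, too few for a check of the gene sets, so the shares describe the matched genes only. The response element core was in 56 of 441 matched higher genes (12.7%), 4 of 98 lower genes (4.08%) and 381 of 9368 tested genes (4.07%), and in 3.44% of all 32851 windows. Among the lists, it was in 10 of 11 matched GBP and IRG genes, 12 of 24 antiviral genes and 5 of 19 class I genes. It was in 0 of 13 matched T cell receptor genes and 0 of 17 pan-leukocyte genes. The STAT site was in 57 of 441 higher genes (12.9%), 3 of 98 lower genes (3.06%) and 8.49% of tested genes, and in 8.30% of all windows. A match is a run of letters and was not tested as a binding site.

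Chemokines of the CC class recruit monocytes and effector T cells, and those of the CXC class neutrophils and T cells. Of 19 tested CC ligands 11 rose and Ccl25 fell (57.9% and 5.26%), with a median of 1.10. Of 17 CXC and other ligands 3 rose (17.65%), with a median of 0.27. Over all tested genes 4.36% were higher and 1.11% lower. The CXC count was 1 without control replicates 1 or 5 or treated replicates 2 or 3 and 5 without treated replicate 1, and the Ccl25 call held in 2 of 9 fits. Ccl5, Ccl9, Ccl6, Ccl3 and Ccl4 are neighbours on chromosome 11 (83525778 to 83664683), and each rose by 1.29 to 1.68. Ccl6 had 74.4, 56.2, 99.7 and 67.3 FPKM in the controls and 206.4, 242.7, 309.2, 282.9 and 162.6 FPKM with GSK343 (1.68 ± 0.25, limma adjusted p = 0.00185). Ccl5, which attracts effector T cells and monocytes, rose from 43.0, 83.3, 67.7 and 51.6 FPKM to 86.9, 168.6, 299.1, 150.9 and 202.9 FPKM, with treated replicate 1 close to control replicate 2. Ccl6, Ccl12, Ccl4, Ccl3 and Ccl5 were called in all 9 fits. The CC count was 5 and 6 without control replicates 1 and 5 and 7 without control replicate 2 or treated replicates 2 or 3.

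The CXCR3 ligands Cxcl10 and Cxcl9 rose, and Cxcl11 differed by 1.29 without passing (adjusted p = 0.0964). Cxcl10 stood at 73.1, 112.5, 122.9 and 79.2 FPKM in the controls and at 126.4, 282.9, 263.1, 165.2 and 188 FPKM with GSK343. The nearest values of the groups were those of treated replicate 1 and control replicate 3. Cxcl9 had 44.8, 63.4, 90.2 and 43.6 FPKM against 66.6, 198.7, 236.8, 158.4 and 145.1 FPKM, and treated replicate 1 lay within the controls. Cxcl10 rose by 1.05 ± 0.27 and Cxcl9 by 1.35 ± 0.34, and both calls were lost without control replicates 1 or 5 or treated replicates 2 or 3, that of Cxcl9 also without treated replicate 4. Xcl1, which attracts cross-presenting dendritic cells, rose from 2.16, 1.71, 2.16 and 2.93 FPKM to 2.95, 6.08, 10.2, 9.54 and 6.13 FPKM (1.22 ± 0.24) and was called in all 9 fits. The receptor genes Cxcr6, Ccr1 and Ccr2, all on chromosome 9, rose by 0.81 to 1.16, while Cxcr3 differed by 0.73 ± 0.24 without passing (adjusted p = 0.0897). Of 11 tested chemokine receptors 5 rose; this count was 0 without control replicate 1, 1 without control replicate 5 or treated replicate 3, 2 without treated replicates 2 or 4, 3 without control replicate 3 and 8 without treated replicate 1.

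Genes of the T cell receptor complex rose together. Of 21 tested, 14 rose and 0 fell, and all 21 differences were positive (median 0.94). Cd3e, a signaling chain of the receptor, had 4.33, 6.97, 6.48 and 7.10 FPKM in the controls and 9.45, 15.1, 24.1, 12.4 and 19.3 FPKM with GSK343 (1.19 ± 0.22, adjusted p = 0.00473). The 3 CD3 genes, Cd3e, Cd3d and Cd3g, are adjacent on chromosome 9, and all were called in all 9 fits. Cd8a rose from 3.44, 6.59, 6.43 and 5.13 FPKM to 6.65, 13.3, 19.6, 8.62 and 14.5 FPKM, with treated replicate 1 at the level of control replicate 2, and the call was lost without control replicates 1 or 5. Cd4 stood at 0.864 to 2.99 FPKM and 1.86 to 7.11 FPKM (0.77 ± 0.24, adjusted p = 0.0689). The T cell count was 7 without control replicate 1, 9 without control replicate 5 and 9 without treated replicate 3, and the list's median was 0.60 without treated replicates 3, 4 and 5. In that fit 0 of the 21 genes were called. With a muscle marker score as covariate 0 were called, and with the compared groups alone 5.

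Killing molecules and NK receptors rose from low levels. Of 15 tested perforin, granzyme and death ligand genes 8 rose (median 1.055), among them Prf1, the pore-forming protein, at 2.12, 2.07, 4.86 and 2.44 FPKM in the controls and 4.75, 12.3, 20.2, 4.42 and 14.1 FPKM with GSK343. Treated replicates 1 and 4 fell within the control range, set by control replicate 3. Gzmb, a granzyme, had 9.18, 9.83, 16.0 and 9.09 FPKM against 13.9, 30.6, 50.6, 17.7 and 28.7 FPKM. Prf1 rose by 1.505 ± 0.36 and Gzmb by 1.19 ± 0.31, and both calls were lost without control replicates 1, 2 or 5 or treated replicates 2 or 3, that of Gzmb also without treated replicate 5. The count of 8 was 1 without control replicates 1 or 5, 3 without control replicate 2, 4 without treated replicate 2 and 2 without treated replicate 3. The NK receptor list had 6 of 14 higher: Klrd1, Klre1, Klrc1 and Klrc2 (1.51, 1.39, 1.11 and 1.05), the adaptor Fcer1g (1.09) and Cd7 (0.88). The other tested members were not called. Differences ran from -0.38 to 1.51, and 13 of 14 were positive. The list's median of 0.82 was 0.37 without treated replicates 3, 4 and 5. In that fit 0 of the 14 genes were called. With a muscle marker score as covariate 0 were called, and with the compared groups alone 4. Fcer1g is also on the Fc receptor list. Klre1 rose from 0.763, 0.640, 1.32 and 0.961 FPKM to 2.08, 4.76, 6.29, 3.70 and 4.14 FPKM and was called in all 9 fits. The count was 4 without control replicate 1 and 10 without treated replicate 1.

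The SLAM family, homotypic receptors of leukocytes, held some of the smallest p-values. Of 10 tested genes 7 rose and 0 fell (median 0.93), and Ly9, Slamf7 and Cd48 are neighbours on chromosome 1. Cd48, the ligand of CD244, had 6.58, 7.91, 9.99 and 7.59 FPKM in the controls and 13.9, 21.95, 25.6, 19.6 and 22.01 FPKM with GSK343. Controls and treated libraries were well apart (1.25 ± 0.14, limma adjusted p = 0.000248). Ly9 rose from 2.05, 2.81, 3.06 and 1.67 FPKM to 4.76, 6.59, 8.98, 7.89 and 8.06 FPKM (1.28 ± 0.16); it overlaps Cd244 in the annotation. Slamf7, found on plasma cells and NK cells, rose from 1.04, 1.06, 1.84 and 0.569 FPKM to 5.10, 6.17, 8.15, 6.78 and 6.05 FPKM (1.83 ± 0.31). Cd48, Ly9, Slamf7, Slamf8 and Cd84 were called in all 9 fits. Cd48 was also called without treated replicates 3, 4 and 5 (1.05, adjusted p = 0.0256).

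Inhibitory and costimulatory receptors were also among the rises. Of 13 tested checkpoint genes 7 rose, among them Lag3, an inhibitory receptor for class II, which had 6.93, 9.93, 10.3 and 4.50 FPKM in the controls and 13.4, 19.6, 25.6, 13.4 and 24.4 FPKM with GSK343 (1.19 ± 0.26; not called without control replicate 5). Cd200r1, an inhibitory receptor of myeloid cells, rose from 3.10, 3.86, 3.03 and 3.08 FPKM to 6.23, 6.89, 8.02, 7.54 and 6.29 FPKM (0.90 ± 0.13, adjusted p = 0.00185). The PD-L2 gene Pdcd1lg2 rose by 0.93, while the PD-L1 gene Cd274 (0.74 ± 0.22, adjusted p = 0.0533) and the PD-1 gene Pdcd1 (0.76 ± 0.26, adjusted p = 0.108) did not pass. All 5 treated Cd274 values, 25.5 to 45.8 FPKM, were above the highest control of 25.4. The checkpoint count was 3 without control replicates 1 or 5, 4 without treated replicate 2 and 11 without treated replicate 1. The costimulatory list had 6 of 8 higher, including Cd86 (0.92), Tnfrsf18 (0.90) and Icos (0.86); it had 2 without control replicates 1 or 5 or treated replicate 4 and 3 without treated replicates 2 or 3. The lymphocyte GTPase genes Gimap1, Gimap3, Gimap6, Gimap7 and Gimap8 rose by 0.62 to 1.11, and Gimap4, Gimap5 and Gimap9 were not called; this family was chosen after its values were seen.

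Antibody genes had some of the largest rises. Igj, which joins IgA or IgM monomers for secretion, had 0.763, 0.154, 9.32 and 9.24 FPKM in the controls and 21.8, 69.1, 59.3, 39.6 and 32.3 FPKM with GSK343 (3.46 ± 0.63, adjusted p = 0.00478; called in all 9 fits). The IgA constant region gene Igha rose from 0.906, 0.205, 0.623 and 1.09 FPKM to 3.10, 7.44, 9.26, 30.2 and 37.4 FPKM. Ighm, the IgM constant region, was highest in treated replicates 2 and 3, at 360.2 and 397 FPKM, whereas Igha was highest in replicates 4 and 5. Of 12 tested B and plasma cell genes 5 rose, and Xbp1 (-0.39) and Sdc1 (-0.26) fell. Hepatocytes express Xbp1 and Sdc1 as well, but the cell source of these falls was not tested. The call of Ighm was lost without control replicates 1 or 2 or treated replicates 2 or 3, and that of Sdc1 held in 3 of 9 fits. The B cell markers Cd79a and Ms4a1 were not among the tested genes. The count of 5 was 2 without control replicate 1 and 3 without control replicate 2 or treated replicates 2 or 3, and the list's median of 2.11 was 0.88 without treated replicates 3, 4 and 5. In that fit 0 of the 12 genes were called.

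Macrophages are the main phagocytes of tumors. Of 20 tested identity genes 11 rose and 0 fell (median 0.78). In 12 of them all treated libraries lay above all controls, a pattern seen in 4.05% of all tested genes. Aif1, an actin-binding protein of macrophages, had 39.4, 49.9, 37.7 and 26.5 FPKM in the controls and 79.2, 82.1, 76.6, 76.2 and 80.6 FPKM with GSK343 (1.055 ± 0.15, adjusted p = 0.00185). Treated replicate 1 was level with the others here. The complement subunits C1qa, C1qb and C1qc, made by macrophages and adjacent on chromosome 4, rose by 0.99 to 1.06; C1qa went from 187.2, 195, 224.4 and 99.5 FPKM to 271.6, 382.7, 310.8, 335.1 and 396.5 FPKM. The macrophage receptor genes Mertk (0.47) and Stab1 (-0.05) were not called. The count of 11 was 7 without control replicate 5 and 1 with the compared groups alone. It was 0 without treated replicates 3, 4 and 5 and 0 with a muscle marker score as covariate.

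Among myeloid receptors, the counts for Fc receptors and C-type lectins stayed within 1.5 times when 1 library was left out. Of 8 tested Fc receptor genes 4 rose, namely Fcgr1, Fcgr3, Fcgr4 and Fcer1g (0.82, 1.01, 0.94 and 1.09), each called in all 9 fits. Fcgr2b, the inhibitory receptor, differed by 0.64, and Fcgrt, the neonatal receptor, by -0.02. Of 16 C-type lectin genes 8 rose (median 1.01). With the compared groups alone, 2 Fc receptor and 4 C-type lectin genes were called. Both counts were 0 without treated replicates 3, 4 and 5 and 0 with a muscle marker score as covariate. Clec4d, a receptor for mycobacterial glycolipid, had 2.02, 1.78, 2.85 and 1.34 FPKM in the controls and 7.80, 3.89, 8.85, 8.83 and 5.93 FPKM with GSK343, and Clec12a, an inhibitory lectin, rose from 5.92, 4.82, 5.62 and 3.34 FPKM to 10.1, 14.5, 16.8, 17.9 and 18.6 FPKM. Alox5ap, which presents arachidonate to the leukotriene-forming lipoxygenase, was even among treated libraries: 6.56, 7.96, 14.1 and 7.93 FPKM became 26.1, 21.6, 24.7, 27.1 and 23.6 FPKM (1.39 ± 0.18, adjusted p = 0.000867). Themis2, a signaling scaffold of B cells and macrophages, rose from 4.15, 4.66, 4.60 and 3.57 FPKM to 7.47, 10.1, 11.1, 8.28 and 9.24 FPKM (0.96 ± 0.11), also without treated replicates 3, 4 and 5 (adjusted p = 0.0256).

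Of 19 tested activation genes of macrophages 4 rose and 0 fell, with a median of 0.84. Nos2, the inducible nitric oxide synthase, had 1.71, 1.97, 6.17 and 1.84 FPKM in the controls and 4.96, 21.9, 36.2, 11.95 and 12.4 FPKM with GSK343. Control replicate 3 lay above treated replicate 1 (2.11 ± 0.48, limma adjusted p = 0.0152), and the call was lost without control replicates 1 (adjusted p = 0.062) or 5 (adjusted p = 0.0574). Irg1, the itaconate-producing enzyme of activated macrophages, rose from 2.01, 1.85, 3.26 and 1.37 FPKM to 3.81, 10.9, 16.0, 7.30 and 6.73 FPKM. Ch25h, an interferon-induced cholesterol 25-hydroxylase, rose from 1.62, 2.32, 4.05 and 2.81 FPKM to 7.72, 14.6, 13.8, 7.53 and 5.89 FPKM. The list's count was 1 without control replicates 1 or 5, 2 without treated replicates 2 or 3, 9 without control replicate 3 and 7 without treated replicate 1. Chil3, a chitinase-like protein, had the largest difference of the list, 3.07, with 1.26 to 14.9 FPKM against 7.61 to 174.3 FPKM, and did not pass (adjusted p = 0.052). Neutrophil markers had 1 of 9 higher (11.1%, beside 4.36% of all tested genes). This was Retnlg (1.78, called in 5 of 9 fits), while S100a8 and S100a9 differed by 0.20 and 0.39. Mast cell and eosinophil markers had 0 of 7 called, with a median of 0.86, and dendritic cell markers 2 of 10, a count that was 0 without control replicate 5, 1 without control replicate 1 or treated replicate 3 and 4 without treated replicate 1.

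Genes expressed across leukocytes also rose. Of 25 tested pan-leukocyte genes 17 rose and 0 fell (median 0.81), 12 of them in all 9 fits. Their summed level was 412 to 570.7 FPKM in the controls and 676.4, 1089, 1230, 998.8 and 1102 FPKM in treated replicates 1 to 5. Laptm5, a lysosomal protein of blood cells, rose from 41.8, 53.9, 53.5 and 38.7 FPKM to 73.4, 95.5, 108, 92.9 and 104.9 FPKM (1.002 ± 0.15). The phosphatase gene Ptpn22 rose from 4.86, 4.69, 6.19 and 1.62 FPKM to 13.8, 12.2, 13.3, 10.8 and 18.5 FPKM (1.53 ± 0.24). Ptprc, the pan-leukocyte antigen CD45, differed by 0.80 and was not called. Without treated replicates 3, 4 and 5 the list's median was 0.60, and that of the muscle markers was 0.30 in place of 2.05. In that fit 0 of the 25 pan-leukocyte genes were called. With a muscle marker score as covariate 1 was called, and with the compared groups alone 9.

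Of 7 tested genes whose listed position is on the Y chromosome, 2 rose (28.6%, beside 4.36% of all tested genes) and 0 fell. Eif2s3y had 4.403, 6.50, 5.53 and 3.49 FPKM in the controls and 5.86, 15, 10.8, 11 and 8.62 FPKM with GSK343 (0.88 ± 0.20, adjusted p = 0.0167). Ddx3y rose from 2.89, 4.19, 3.97 and 2.86 FPKM to 4.28, 6.47, 10.4, 7.41 and 5.72 FPKM (0.78 ± 0.20, adjusted p = 0.0312). The other genes listed there, Gm21748 (0.46), Gm21860 (0.45), Erdr1 (0.19), Gm20775 (0.02) and Gm20899 (0.01), did not pass. The inactive X transcript Xist was present in every library at 70.0 to 113.2 FPKM and did not pass (-0.23 ± 0.25, adjusted p = 0.686). Both Y-linked calls were lost without control replicates 1 or 5, and the Ddx3y call also without treated replicates 2, 3 or 4. These genes were chosen after their values were seen, and the part of host cells in them was not tested.

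**Figure D3:**
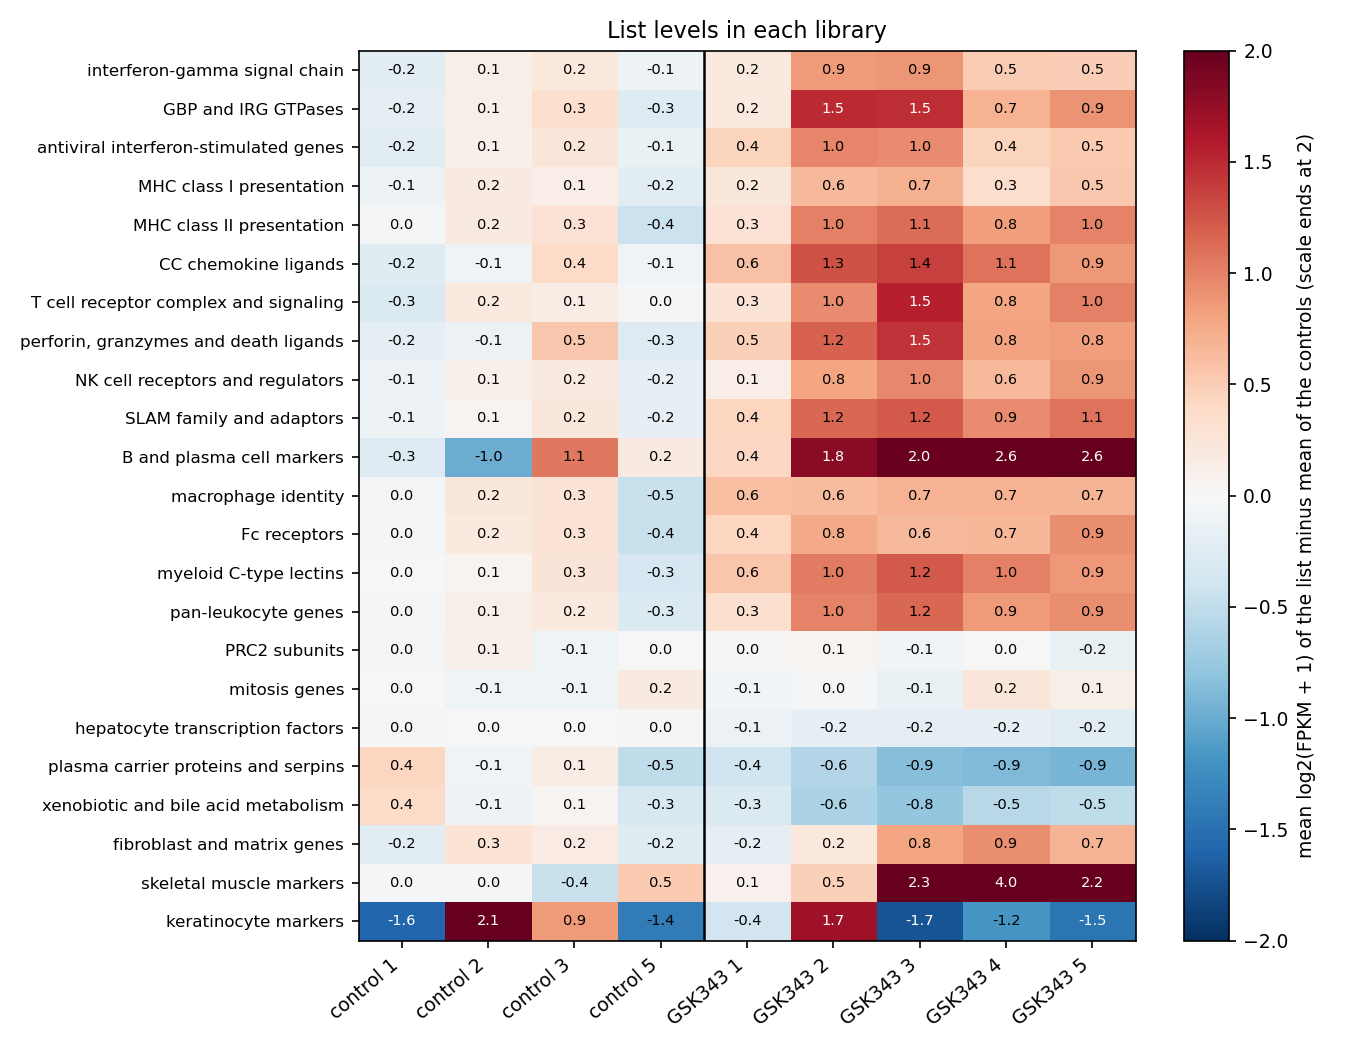
Mean log2(FPKM + 1) of the members of 23 gene lists in each of the 9 libraries (columns), minus the mean of the 4 controls; red is higher and blue lower, and the color scale ends at 2. The interferon-gamma signal, GBP and IRG, and antiviral lists are highest in treated replicates 2 and 3, the T cell receptor and NK receptor lists are highest in treated replicate 3 and, among treated libraries, lowest in replicate 1, macrophage genes are nearly even over the treated libraries, and muscle markers are high in treated replicates 3, 4 and 5.

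Of the 160 lower genes 24 were on a list, and several of these are hepatic genes of the tumor cells. Serpind1, the plasma protease inhibitor heparin cofactor II, had 59.97, 42.1, 34.4 and 32.2 FPKM in the controls and 17.8, 17.2, 11.5, 10.4 and 14.6 FPKM with GSK343. All treated libraries were below all controls (-1.48 ± 0.26, limma adjusted p = 0.00412), and the call held in all 9 fits. Serpina6, the corticosteroid-binding globulin, fell from 136.9, 63.3, 48.7 and 44.2 FPKM to 40.6, 12.6, 13.03, 7.08 and 6.40 FPKM (-2.29 ± 0.62, adjusted p = 0.0392). Its treated replicate 1 was near the lowest control, and the call held only without treated replicate 1. The thyroid hormone carrier Ttr had 292.8, 126.9, 85.5 and 57.2 FPKM and fell to 81.7, 32.4, 18.7, 22.2 and 52.9 FPKM (-1.67 ± 0.46), with treated replicate 1 inside the control range; this call was lost without control replicates 1 or 2 or treated replicates 2, 3 or 4.

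Across plasma carriers and serpins, 5 of 22 fell and 2 rose, and the median was -0.62. The iron carrier Trf had 2529, 2073, 2469 and 2084 FPKM in the controls and 1897, 1233, 1363, 1205 and 1386 FPKM with GSK343 (-0.71 ± 0.18, adjusted p = 0.0273). The rises were Serpinf1 (0.74) and the C1 inhibitor gene Serping1 (1.14). Stromal cells express both as well, but the cell source of these rises was not tested. Alb, albumin, had 3243, 2790, 3209 and 2775 FPKM against 2401, 2386, 2326, 1819 and 2150 FPKM, groups without overlap that just missed the threshold (-0.44 ± 0.13, adjusted p = 0.0536). Ahsg, or fetuin-A, had the lowest difference of the list (-2.71) without passing, with 3.40 to 49.9 FPKM against 0.580 to 6.33 FPKM. The count of 5 was 1 without control replicate 1 or treated replicates 3 or 4, 2 without treated replicate 2, 3 without control replicates 2 or 3, and 8 without treated replicate 1. Of 14 coagulation genes 0 fell, at a median of -0.58, and F10 rose by 1.47. This is 7.14% higher, beside 4.36% higher and 1.11% lower of all tested genes. Macrophages express F10 as well, but its cell source was not tested. The F10 call was lost without control replicates 1 or 5 or treated replicate 3. The Trf call was lost without control replicates 1, 3 or 5 or treated replicates 2, 3 or 4, and the Serpinf1 and Serping1 calls each held in 2 of 9 fits.

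Of 17 hepatocyte transcription factor genes, which maintain the hepatocyte program, 2 fell and 0 rose (median -0.20). The share that fell was 11.8%, beside 1.11% of all tested genes. Foxa1, a pioneer factor of liver and other endoderm, had 4.81, 3.86, 3.94 and 4.21 FPKM in the controls and 2.50, 2.15, 2.16, 2.43 and 2.35 FPKM with GSK343 (-0.65 ± 0.12, adjusted p = 0.00478). Treated replicate 1 was as low as the others, and the call held in all 9 fits; without treated replicates 3, 4 and 5 the difference was -0.64 and the call was lost (adjusted p = 0.11). Foxa3 fell by 0.41, a call that held in 2 of 9 fits; the count was 1 in all fits without 1 library except 2 without control replicate 3 and 4 without treated replicate 1. Hnf4a, the nuclear receptor of hepatocyte identity, had 22.9 to 26.1 FPKM against 18.4, 19.01, 18.6, 25.6 and 19.1 FPKM (-0.25 ± 0.15, adjusted p = 0.419), and Afp differed by -0.40 ± 0.17 (adjusted p = 0.185). Fgfr4, the FGF19-class receptor of hepatocytes, fell from 11.1, 12.3, 9.76 and 8.89 FPKM to 6.04, 6.35, 5.07, 6.99 and 7.503 FPKM (-0.64 ± 0.12).

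Detoxifying and lipid enzymes were also among the falls. Of 25 xenobiotic and bile acid genes 4 fell and 0 rose (median -0.41), and 23 differences were negative. Abcc2, the canalicular export pump, had 59.0, 69.5, 51.8 and 53.3 FPKM in the controls and 36.2, 33.8, 27.7, 27.4 and 35.0 FPKM with GSK343 (-0.85 ± 0.19, called in all 9 fits). The other falls, Akr1c6 (-1.94), Ces2e (-1.56) and Gsta4 (-1.12), each held in 2 of 9 fits; the count was 8 without treated replicate 1, 2 without control replicates 2 or 3, and 1 without control replicate 1 or treated replicates 2, 3, 4 or 5. The only run of 3 or more neighbours called lower was Akr1c13, Akr1c19, Akr1c12 and Akr1c6, aldo-keto reductases of steroid metabolism, between 4191184 and 4457530 on chromosome 13. Akr1c12 went from 32.2, 30.2, 28.7 and 28.7 FPKM to 26.3, 24.1, 19.3, 20.6 and 22.1 FPKM (-0.41 ± 0.11), and the calls of these 4 genes held in 1 to 3 of 9 fits. Amacr, a racemase of branched-chain fatty acid and bile acid synthesis, had the smallest p of all falls and held in all 9 fits: 37.1, 29.7, 28.0 and 31.4 FPKM became 20.8, 18.0, 16.9, 18.9 and 21.7 FPKM (-0.68 ± 0.11, adjusted p = 0.0027).

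**Figure D4:**
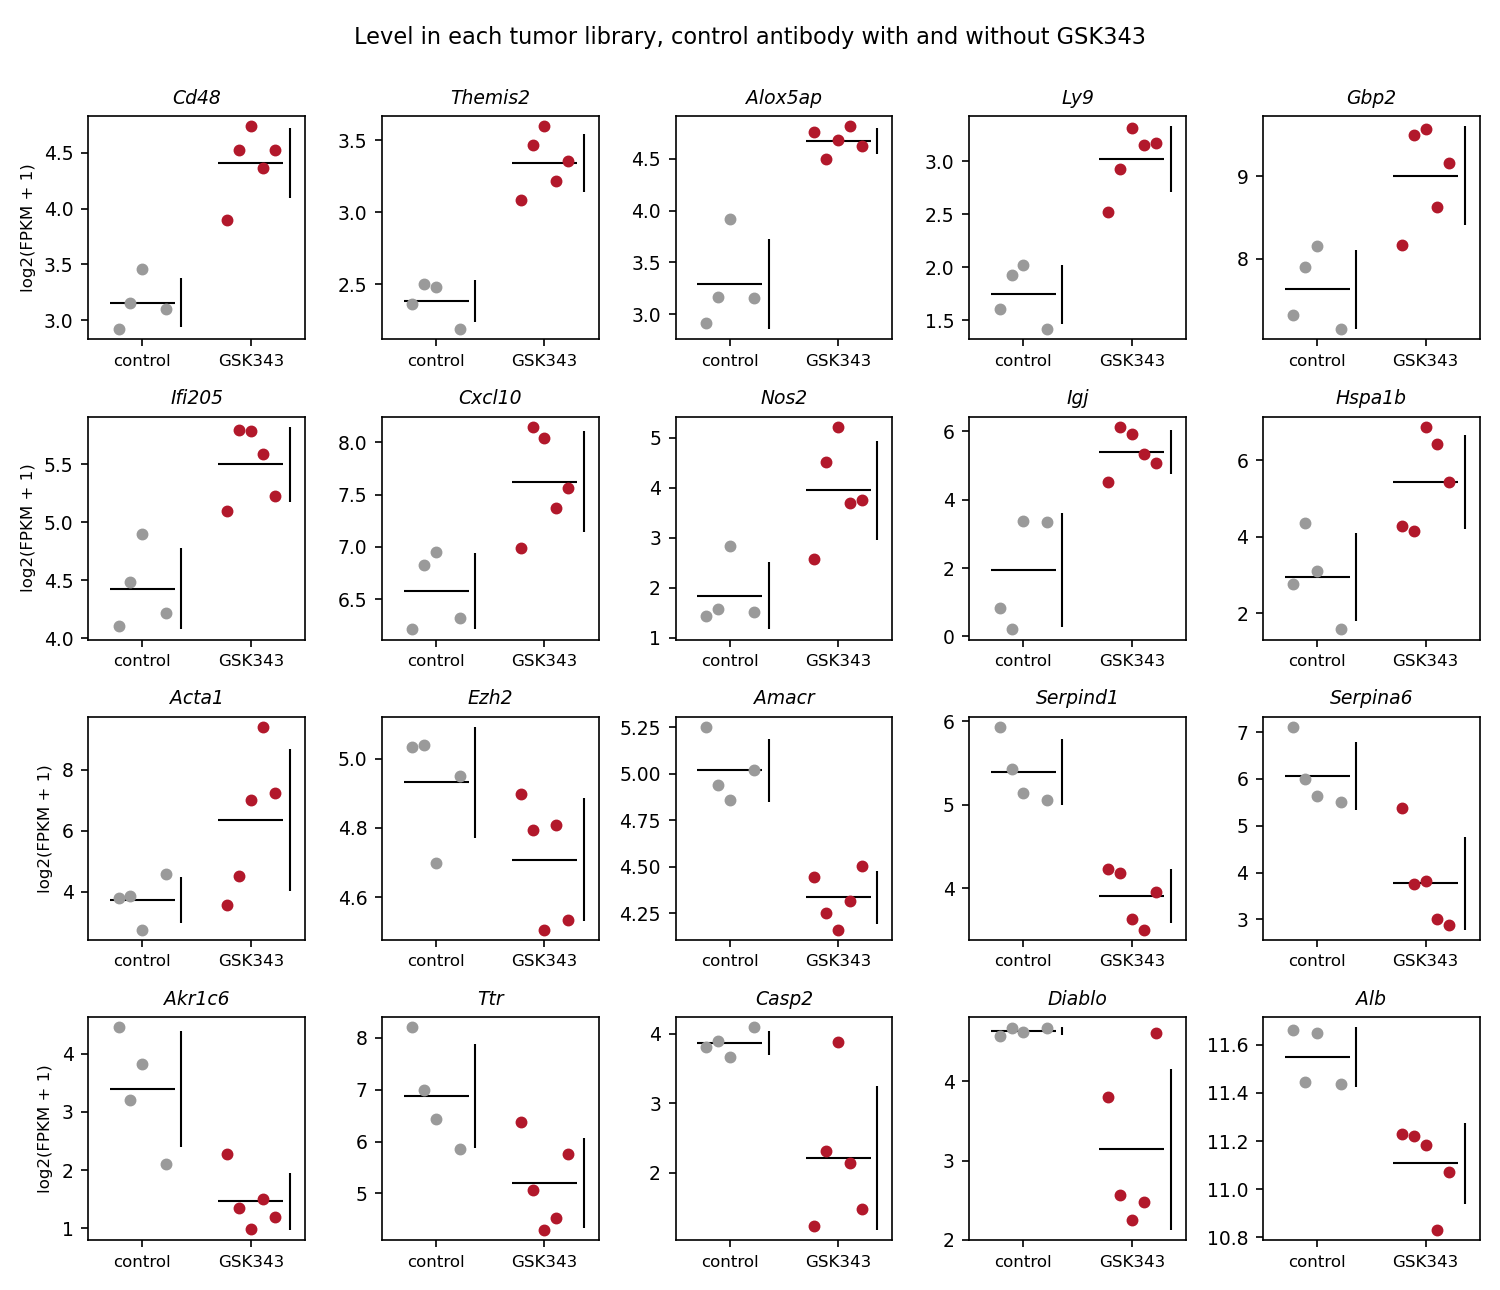
Level of 20 genes in each library as log2(FPKM + 1), controls in grey (replicates 1, 2, 3 and 5 from left to right) and GSK343-treated libraries in red (replicates 1 to 5 from left to right). Horizontal lines are group means and vertical lines 1 SD to each side; no red point reaches the grey points in Cd48, Themis2, Alox5ap and Amacr, and in Casp2 and Diablo 1 red point stays at the control level.

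Falls that held in all 9 fits also included the tight junction gene Cldn2 (-0.48 ± 0.10), the secreted-protein kinase gene Fam20c (-0.38 ± 0.08), the glycoprotein gene Mpzl1 (-0.53 ± 0.10) and Galnt18, a mucin-type glycosyltransferase (-0.65 ± 0.12). Lrrc47, a leucine-rich repeat protein, had 11.01, 10.3, 9.65 and 11.1 FPKM in the controls and 4.68, 4.21, 4.39, 5.12 and 3.79 FPKM with GSK343 (-1.08 ± 0.21, adjusted p = 0.00704). A few falls left 1 treated library at the control level. Diablo, a mitochondrial inhibitor of caspase inhibitors, had 22.8, 24.4, 23.6 and 24.5 FPKM in the controls and 12.9, 4.93, 3.76, 4.58 and 23.4 FPKM in treated replicates 1 to 5, so that replicate 5 matched the controls. Diablo fell by 1.49 ± 0.33 (adjusted p = 0.0139) and was called in all 9 fits. Casp2, an apoptotic caspase, had 13.02, 13.95, 11.7 and 16.1 FPKM against 1.37, 3.99, 13.8, 3.43 and 1.80 FPKM, and there replicate 3 matched the controls (-1.65 ± 0.47, adjusted p = 0.0461; the call held only without that library). Eps8, an actin-capping signaling adaptor, was below all controls in every treated library and fell from 10.03, 9.73, 10.8 and 8.64 FPKM to 1.46, 2.02, 2.72, 4.24 and 2.43 FPKM (-1.64 ± 0.41), and its call held in 3 of 9 fits.

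Cell cycle genes had no calls. Of 25 mitosis genes and 26 DNA replication genes 0 were called in either direction, with medians of 0.03 and -0.04. In the p53 and apoptosis list, Diablo and Casp2 fell, and Casp9 (0.85) and Bcl2 (0.50) rose, of 29 tested. Each direction made up 6.90% of the list, beside 4.36% higher and 1.11% lower over all tested genes. Casp9 had 1.21, 1.304, 0.923 and 1.29 FPKM in the controls and 2.16, 4.39, 1.43, 3.86 and 3.69 FPKM with GSK343, and both rises held in 2 of 9 fits. Of 20 endoplasmic reticulum stress genes only Xbp1 was called, falling by 0.39 in all 9 fits.

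Some stress and stromal genes were highest in the libraries high in muscle markers. The heat shock genes Hspa1a, Hspa1b and Hspb1 rose, and the other 17 tested chaperones were not called (list median 0.08). These rises made up 15% of the list, beside 4.36% of all tested genes. Hspa1b, an inducible HSP70, had 5.78, 19.6, 7.59 and 1.99 FPKM in the controls and 18.3, 16.8, 116.4, 85.1 and 42.1 FPKM with GSK343. The treated libraries high in muscle markers were also the highest here, and without them the difference went from 2.48 to 1.26 (adjusted p = 0.333). Hspa1a and Hspa1b are near-identical copies, so their split is uncertain, and all 3 calls were lost without control replicates 1 or 5. Pvalb, which buffers calcium in fast-twitch muscle, had 0, 0.565, 0.307 and 3.37 FPKM against 1.97, 4.43, 27.7, 69.6 and 14.8 FPKM, and its difference went from 3.005 to 1.21 without those libraries; its call held in 2 of 9 fits. The matrix proteoglycan gene Ogn, which overlaps Cenpp, rose by 1.76 and stood at 0.63 without them. Fibroblast and matrix genes had 1 of 28 called higher, Clec3b (1.79), or 3.57% beside 4.36% of all tested genes. The list median of 0.40 was 0.04 without treated replicates 3, 4 and 5. The count was 7 without treated replicate 1 and 3 without treated replicate 2. It was 0 without control replicates 1 or 5 or treated replicates 3, 4 or 5. The summed level of these genes was 3496 to 4317 FPKM in the controls and 2882 to 4704 FPKM in the treated group. Endothelial markers had 1 of 20 called higher (5%), Vcam1 (0.75), and keratinocyte and adipocyte markers 0 of 18 and 0 of 6. The Vcam1 call held in 4 of 9 fits, and without treated replicate 1 endothelial markers had 3 calls and muscle markers 14. The keratinocyte median was -0.51 and, without the 3 libraries, 0.68. With a muscle marker score as covariate, 6 of all tested genes were called higher and 0 lower.

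**Figure D5:**
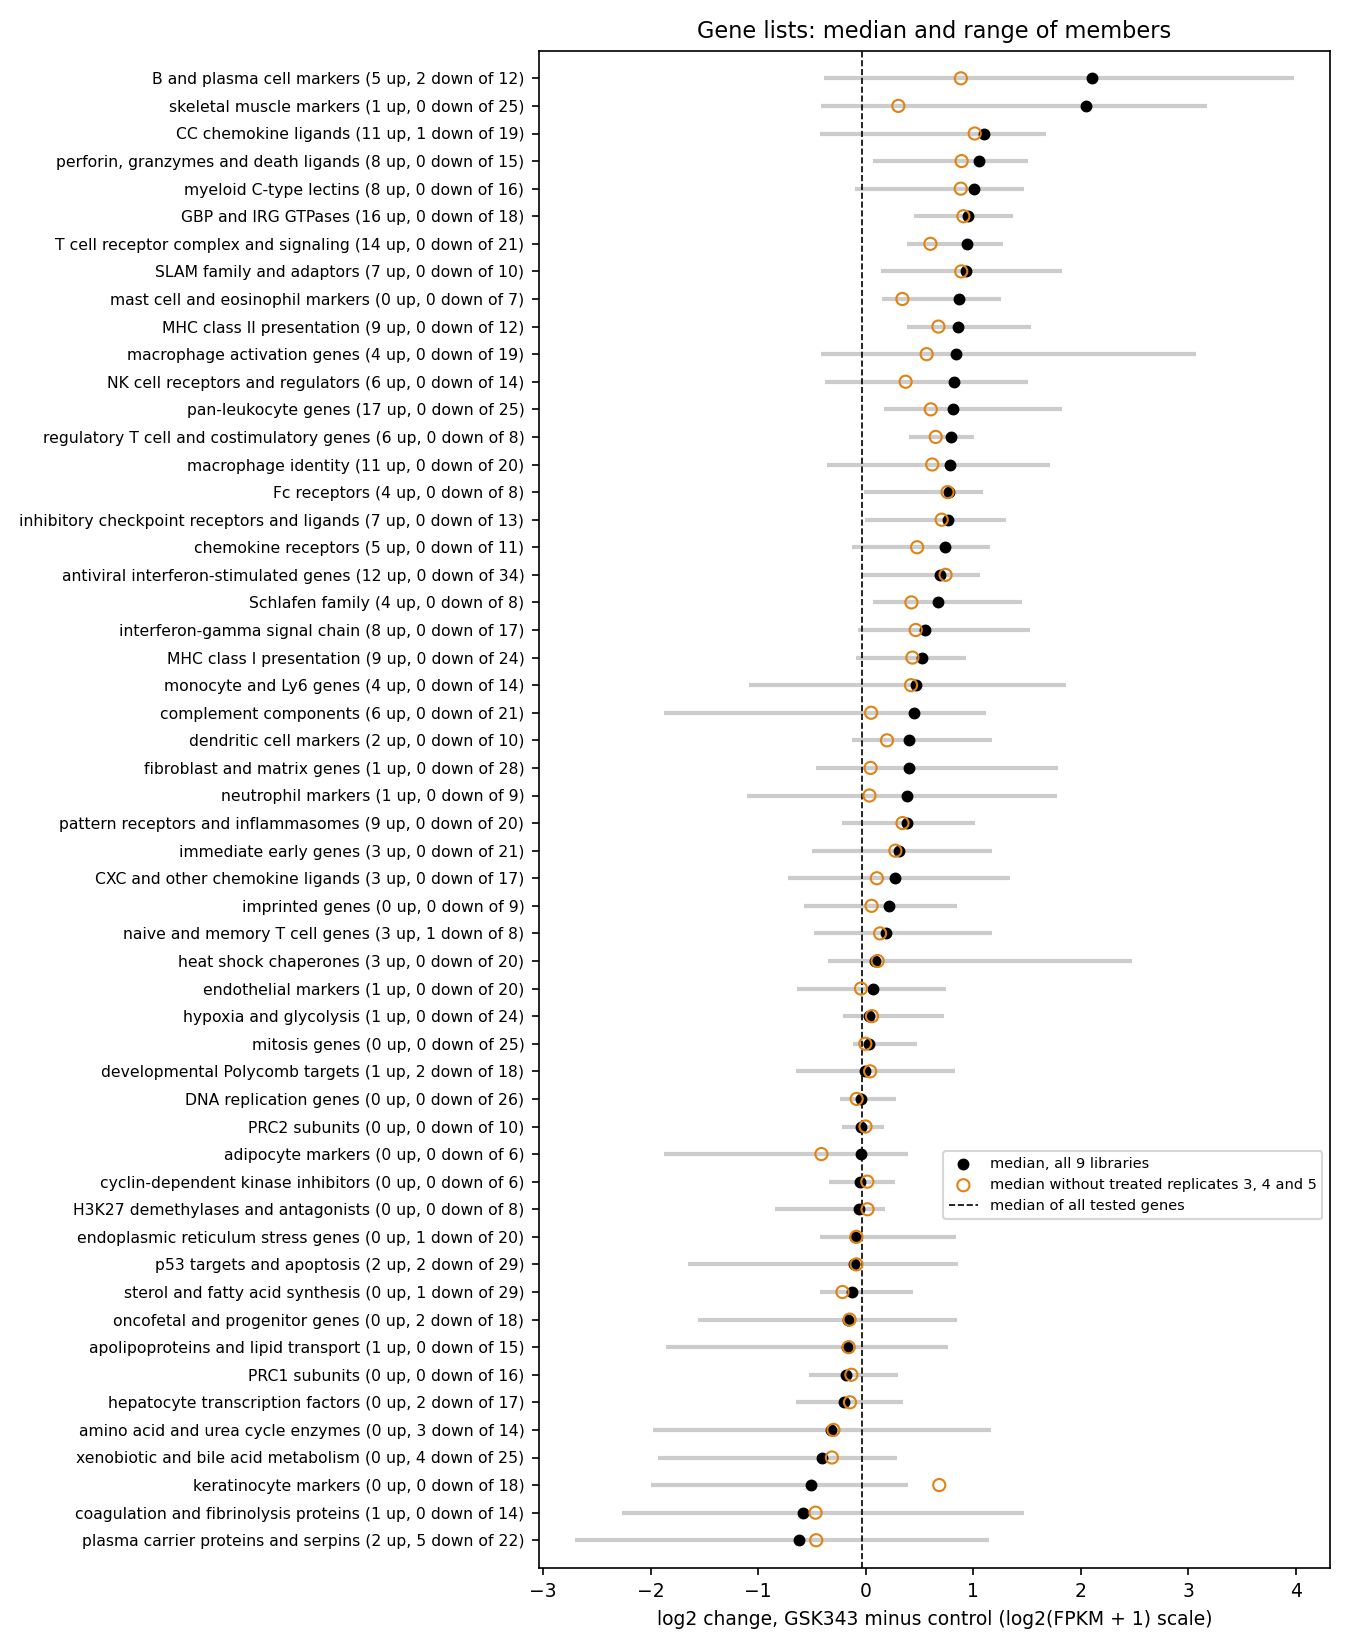
Median change of each of 54 gene lists (black points), the range of their members (grey lines) and the median without treated replicates 3, 4 and 5 (orange circles), on the log2(FPKM + 1) scale; the dashed line is the median of all tested genes, -0.03. Orange and black lie close together for the GBP and IRG, antiviral and CC chemokine lists and far apart for muscle markers (2.05 and 0.30) and for B and plasma cell genes (2.11 and 0.88). In the fit without those libraries, 0 genes of the GBP and IRG, antiviral and CC chemokine lists were called.

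Called genes often lay beside each other. In 23 runs, 3 or more adjacent tested genes were all higher, and these held 89 of the 627 higher genes (14.2%). Besides the clusters already named, they included Phf11a to Phf11d on chromosome 14 (0.49 to 1.10), Sirpb1a, Sirpb1b and Sirpb1c, activating receptors of myeloid cells, on chromosome 3 (0.82 to 1.05), and Trim5, Trim12a and Trim12c, restriction factor genes, on chromosome 7 (0.62 to 0.78). Tyrobp and Hcst, which encode signaling adaptors for NK and myeloid receptors, adjoin Nfkbid on chromosome 7, and each of the 3 rose. Most of these runs are families of similar genes in tandem, whose members can share fragments, so neighbours are not independent observations.

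The change with GSK343 differed between control antibody and anti-CXCL10 for 9 of 14385 genes (0.0626%), and 1862 had an unadjusted p under 0.05. The 2 changes share no library. All 9 were among the genes called higher under control antibody. The difference between antibodies contains that change, so this overlap is partly built in and is not separate support. Cd48 rose by 1.25 under control antibody and differed by 0.14 under anti-CXCL10, where its means were 8.86 FPKM without and 9.88 FPKM with GSK343. For Themis2 these changes were 0.96 and -0.01, for Alox5ap 1.39 and 0.00, for Ly9 1.28 and -0.15, and for Ccl6 1.68 and -0.24. The other genes, chosen after their values were seen, were Dock2, Trpv2, AI662270 and AB124611. For Cxcl10 the difference of the changes was 1.06 (limma adjusted p = 0.222) and for Ifng 1.54 (0.131), so a difference between antibodies was not shown for them. The count of 9 was 0 without control replicate 5, treated replicate 2, anti-CXCL10 replicate 3 or anti-CXCL10 plus GSK343 replicates 1 or 5, 476 without treated replicate 1, 57 without anti-CXCL10 replicate 5, 47 without control replicate 3, and 1 to 5 without control replicates 1 or 2, treated replicates 3 or 4, anti-CXCL10 replicates 1 or 4, or anti-CXCL10 plus GSK343 replicates 2 or 4.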

How the data were processed

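The deposited table holds normalized expression values of 14646 rows in 19 libraries. Columns were matched to samples by the column name in each sample's description, and the titles gave group and replicate. No label names the unit; the values are read as FPKM because sums weighted by transcript length were more even over libraries (coefficient of variation 0.79%) than plain sums (4.06%). The deposited FPKM values were made by the authors, and the tools named, per the submitters' processing notes, are StringTie 1.3.3b, HTSeq 0.6.0, HISAT2 2.1.0, TopHat2 2.1.0 and Trimmomatic 0.33, with the builds GRCm38 and mm10. Which tool did which step, and the strand setting, are not given in the sources used here. Read depth is unknown, so no counting interval is given.

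Rows with a repeated identifier were merged to 14633 genes, and genes with at least 1 FPKM in at least 5 libraries (14385) were tested on log2(FPKM + 1) with limma 3.58.1 (trended, robust; statmod 1.5.0, R 4.3.3) over all 4 groups, with Benjamini-Hochberg adjustment and a threshold of 0.05. The difference between antibodies was the interaction term of the same fit. Named by rule were the 15 largest rises and falls reaching 5 FPKM, the 10 smallest p-values in each direction among genes without overlap called in all fits that left out 1 library and in the fit of the compared groups alone, up to 4 called members of each list described, key genes such as Ezh2 and Cxcl10, and members of small families; other genes given with values were chosen after their values were seen. The members and lists were chosen with earlier results of these data known. Some genes that meet the rule are counted but not reported here. The alternatives were another pseudocount, other filters, other scalings, the compared groups alone, a replicate block, another variance model, leaving out 1 library, and leaving out or modelling the muscle signal. The test was run on simulated data first. Deviations of same-numbered libraries were weakly correlated (-0.0721 to 0.137), and replicate numbers were not used as pairs in the main fit. Promoter windows come from RefSeq (GRCm38.p6).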

Additional observations from a re-analysis of the deposited data

Results flagged for a closer look

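In 7 of 126 groups looked at, 1 library stood apart from the others, measured as its gap to the nearest library divided by the range of the group on the log2(FPKM + 1) scale. Chance alone flags about 1 in 20 groups. Control replicate 3 was above the other controls in Nos2 (ratio 0.907, at 6.17 FPKM with the others from 1.71 to 1.97 FPKM), in Ifng (ratio 0.906, 3.62 against 2.23 to 2.34 FPKM) and in Gzmb (ratio 0.865, 16.0 against 9.09 to 9.83 FPKM). Control replicate 2 was above the others in Cd200r1 (ratio 0.911, 3.86 against 3.03 to 3.10 FPKM). Among treated libraries, replicate 3 was low in Ces2e (ratio 0.735, 0.6998 against 1.92 to 2.55 FPKM), and replicate 1 was low in Trim16 (ratio 0.722, 1.73 against 4.32 to 5.88 FPKM). Treated replicate 4 was high in Hnf4a (ratio 0.900, 25.6 against 18.4 to 19.1 FPKM).

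The change with GSK343 differed between antibodies, by limma's interaction term, for 5 of the named genes. The change under control antibody exceeded that under anti-CXCL10 by 1.917 for Ccl6 (adjusted p = 0.0489), by 1.105 for Cd48 (adjusted p = 0.0404), by 0.9654 for Themis2 (adjusted p = 0.0252), by 1.384 for Alox5ap (adjusted p = 0.0459) and by 1.429 for Ly9 (adjusted p = 0.0252). Each of these was higher in all 5 treated libraries than in all 4 controls under control antibody. The interaction term contains the change between these libraries, so this is not separate support.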

How the results depend on the processing

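The count of 627 higher genes became 390 under a stricter filter with 9595 genes tested, 180 with the compared groups alone, 12 without the 3 libraries highest in muscle markers and 6 with a muscle marker score as covariate. The count of 160 lower genes became 53, 3 and 0 under the last 3 of these. Leaving out 1 library gave 256 to 1025 higher and 40 to 364 lower genes. Fewer samples enter the fits of the compared groups alone and without the 3 libraries; otherwise the cause was not tested. The other settings stayed within 1.5 times of both counts: pseudocount 0.1, no filter, median-ratio scaling, quantile normalization and another variance model. Quantile normalization gave 630 higher and 215 lower genes and median-ratio scaling 692 and 124.

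With a replicate block, 635 genes were higher and 125 lower, and 555 and 107 of them were shared with the reported calls. Whether the numbers pair the samples was not settled. The correlations of same-numbered deviations were 0.133, 0.137, 0.0596 and -0.0721 for replicates 1, 2, 3 and 5. The highest correlations with another number were 0.101, 0.00938, 0.116 and 0.0485.

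The count of 9 genes whose change differed between antibodies was recomputed under settings chosen after seeing the data. It became 5 under the stricter filter, 57 with a replicate block, 1 without the 3 libraries and 0 with the covariate, and it ran from 0 to 476 when 1 library was left out. Of 63 named genes 54 were called, and 27 were called in all 9 fits that left out 1 library. Some genes were named because they were called in all of these fits. The 27 is therefore partly built in and does not measure how stable the calls were. Over all tested genes, 211 higher and 28 lower genes were called in all 9 fits, beside 627 and 160 in the main fit. The number of libraries limits the precision, and the depth is unknown.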
